A study of Homo sapiens with 4 samples.

Results

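Circular RNAs that were read in control cells and never in DIS3-depleted cells were examined. Circles were selected on FPBcirc, the number of backsplice fragments per gigabase of mapped sequence: a circle was counted as control-only when this value was 0 in both depleted libraries and at least 0.14 in at least 1 control library, which is about 3 reads. Of 45182 circles listed, 1639 met this rule, and they came from 1289 of 8230 host genes. All cells were Flp-In T-REx 293, a derivative of the human embryonic kidney line HEK293 with a single site for transgene integration. Every library came from cells with an integrated, inducible Flag-HA DIS3 transgene, and the column names mark all of them as grown without doxycycline, the inducer. The control group (2 biological replicates) had no DIS3 disruption named in its labels. In the other group (DIS3 KD clone 8, 2 biological replicates) CRISPR/Cas9 had been used against the cell's own DIS3 gene, and because some DIS3 remained uninduced the submitters call the cells knock down. Only 1 clone was profiled, so clone and depletion cannot be told apart.

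A circular RNA forms when the 5′ splice site at the end of an exon is joined backwards to the 3′ splice site at the start of an upstream exon, which leaves a closed loop without free ends. Exonucleases that need a free end therefore cannot start on it, and many circles outlive the linear mRNA of the same gene. DIS3 is the catalytic subunit of the nuclear RNA exosome and carries both an exonuclease and an endonuclease activity. A backsplice read crosses the junction where the ends of the circle meet, and a circle is named here by its host gene and the genomic positions of these ends (hg38, counted from 1), where the first base is the end with the lower position whatever the strand.

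The ends themselves can be shown for the few circles whose 5′ end lies in the sequence around the annotated start of the host gene. RefSeq windows of GRCh38.p14 running from 250 bases before to 50 bases after the gene start were matched to 1358 control-only circles, and 13 of these (0.957%) had their 5′ end inside. Among circles with as high a control value that were also read in KD, 44 of 4871 (0.903%) did. The lines give 30 bases before the circle in lower case and its first 20 bases in capitals, on the strand of the host gene, and they are shown because the last bases before the capitals are where a 3′ splice site would carry AG.
PIK3R3 (chr1:46131937-46131986, minus strand): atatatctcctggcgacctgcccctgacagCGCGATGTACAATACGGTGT
REV3L (chr6:111483210-111483259, minus strand): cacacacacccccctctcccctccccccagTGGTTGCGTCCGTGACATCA
EHBP1 (chr2:62706867-62706916, plus strand): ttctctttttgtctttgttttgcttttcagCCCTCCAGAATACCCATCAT
CNTN1 (chr12:40908327-40908376, plus strand): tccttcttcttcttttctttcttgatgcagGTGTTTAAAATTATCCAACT
ERC1 (chr12:1027718-1027767, plus strand): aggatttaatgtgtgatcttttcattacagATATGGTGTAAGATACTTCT
ARL6IP1 (chr16:18801528-18801577, minus strand): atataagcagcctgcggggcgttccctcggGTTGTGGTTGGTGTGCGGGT

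The letters AG stood directly before 12 of the 13 control-only circles and before 44 of the 44 circles also read in KD. The exception was ARL6IP1, where GG preceded the circle. On the sense strand AG stood before 7.26% of all positions in 35116 such windows. The circle of PIK3R3, a regulatory subunit of phosphoinositide 3-kinase, had 0 and 7 reads in control replicates 1 and 2. The circle of EHBP1, which links endocytic traffic to actin, had 5 and 0, and that of REV3L, the catalytic subunit of a translesion DNA polymerase, had 0 and 4. ERC1, a scaffold of the cell cortex, gave 2 control-only circles from the same 5′ end, one with 3 reads in control replicate 1 and the other with 3 reads in control replicate 2. Each of these circles was thus read in a single library.

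Depth limits what could be seen. One read was worth 0.0511 and 0.0489 FPB in the controls and 0.00604 and 0.0209 FPB in KD replicates 1 and 2. In the same order, backsplice reads numbered 48895, 55193, 352471 and 121507 and mapped sequence came to 19.6, 20.4, 165 and 47.9 gigabases, so the KD libraries were the deeper ones. In the pooled KD libraries a count of 0 allows up to 3 reads, or 0.0141 FPB, a limit that covers counting error only. DIS3 itself gave 0 backsplice reads in both controls and 7 and 2 in KD, too few to check the labels. Circles of IGF2BP1 and IGF2BP3, oncofetal RNA-binding proteins of this cell line, were read in all 4 libraries. Of the other markers of the line, PAX2 had 2 reads in KD replicate 1 alone and LIN28B had no circle listed. Of the markers of other cells, ITGAM of blood cells had a circle with 0, 4, 40 and 4 reads, while PTPRC, CD3E, ALB, APOB, SERPINA1 and 3 fibroblast collagens had no circle listed.

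Most control-only circles were rare. The higher control held 3 reads for 728 of them (at least 0.147 FPB), with a median of 4 reads, at least 5 reads for 496, at least 10 for 44 and at least 20 for 7. Just outside the rule, 1144 circles without a KD read had 2 reads in the higher control, at 0.0978 or 0.102 FPB. The mean control value ran from 0.0734 to 1.54 FPB with a median of 0.0978. These means were 5.22 times the limit in pooled KD for the lowest circle, 6.96 times for the median one and 110 times for the highest. The ratios leave out the counting error of the control means, so they are not lower bounds. Together the circles held 6.98% and 7.20% of the FPBcirc of control replicates 1 and 2. Because the rule fixed these values, no test was made on them.

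The control pair seldom read the same control-only circle. Both control libraries held a read of 106 of the 1639 (6.47%), while 719 were read in replicate 1 alone and 814 in replicate 2 alone. Among 5900 circles with at least 0.14 FPB in a control that were also read in KD, both controls held a read of 2747 (46.6%). The gap was present in every class of read number. At 3 reads in the higher control the shares were 4.67% and 21.2%, at 4 reads 6.02% and 29.6%, and at 5 to 6 reads 7.40% and 36.3%. At 7 to 9 reads they were 12.3% and 51.8%, and at 10 or more reads 8 of 44 (18.2%) and 1265 of 1539 (82.2%). This last class has no upper limit, so its read numbers are not matched. Control-only circles reached 63 reads in a control, while a CAMSAP1 circle also read in KD had 303 and 301. Seen from the other side, 106 of the 2853 circles read in both controls lacked KD reads (3.72%), against 1533 of the 4686 read in 1 control (32.7%). The sets are split by the KD reads the rule used, so these shares are a description and were not tested.

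**Figure D1:**
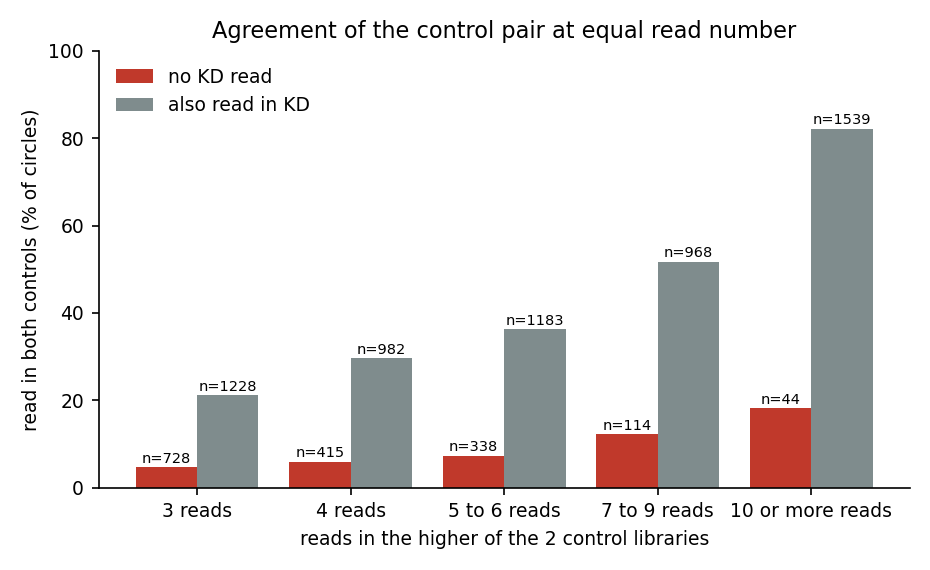
Share of circles read in both control libraries (y axis, %), by the number of reads in the higher control (x axis), for control-only circles (red) and circles also read in KD (grey), with the number of circles above each bar. The red bars rise from 4.67% to 18.2% and the grey bars from 21.2% to 82.2%.

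The highest single values came from 1 control library each. The circle with the highest mean (chromosome 9, 35657751 to 35658018) lies on RMRP, the RNA component of the RNase MRP ribonucleoprotein, and had 0 reads in control replicate 1 and 63 in control replicate 2 (3.08 FPB). RefSeq places this gene at 35657750 to 35658019, so the 268 bases of the circle stop 1 base inside each gene end. Whether splice sites lie at these ends was not checked. No other RMRP circle was listed, and the linear signal of RMRP was listed at 0 in control replicate 2. A circle of CCDC91, a Golgi traffic protein (chromosome 12, 28225795 to 28259442), had 37 reads in control replicate 1 (1.89 FPB) and 0 in replicate 2. NCL, the nucleolar protein nucleolin (chromosome 2, 231457001 to 231457800), and CAMLG, a receptor for insertion of tail-anchored proteins (chromosome 5, 134741063 to 134744052), each had 25 and 0 (1.28 FPB). Each of these 4 circles had reads in 1 control library and none in the other.

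Next by mean control value stood DYM, EVI5 and MSANTD3-TMEFF1, which were read in both controls and are described below. Lower among the 15 highest, DEK, HNRNPM, MSH3 and MTHFD1L were also read in both. The rest of the 15 were read in 1 control alone. RSL1D1, a nucleolar protein, had 21 and 0 reads, HSP90AA1, a cytosolic chaperone, 20 and 0, and PIGN, an enzyme of the glycolipid anchor pathway, 14 and 0. PDE7A, a phosphodiesterase, had 0 and 21. HNRNPM, a splicing regulator, had 1 and 16. HSP90AA1 had a second control-only circle from the same first base (chromosome 14, 102083034 to 102086378) with 2 and 7 reads. Of the 44 circles with 10 or more reads in a control, 36 were read in 1 control only, 16 in replicate 1 and 20 in replicate 2.

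**Figure D2:**
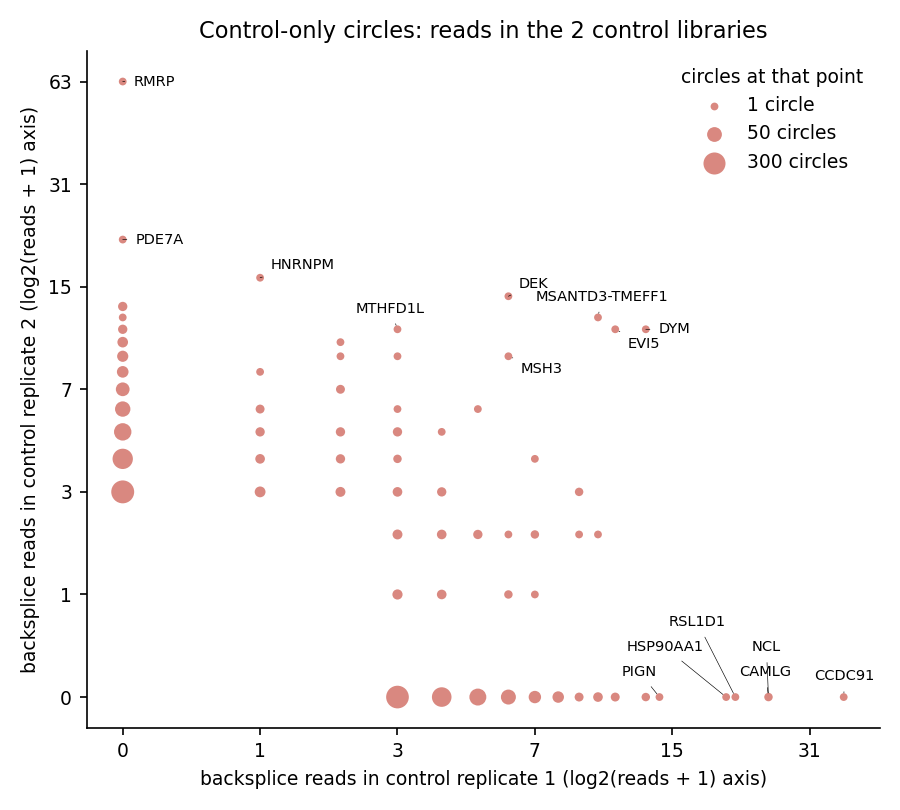
Backsplice reads of the 1639 control-only circles in control replicate 1 (x axis) and control replicate 2 (y axis), both on a log2(reads + 1) scale, with point area growing with the number of circles at that position and the 15 circles of highest mean labelled. The circles lie mostly on the axes, with DYM, EVI5 and MSANTD3-TMEFF1 at 10 or more reads in both.

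A small core was read well in both controls. Of the 106 circles, 28 had at least 3 reads in each control, 6 at least 5 and 3 at least 10. These 3 came from DYM, a Golgi protein mutated in a skeletal dysplasia, EVI5, a Rab-regulating protein of cell division, and MSANTD3-TMEFF1, a read-through locus of neighbouring genes.

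The DYM circle (chromosome 18, 49363161 to 49379758) had 13 and 11 reads, or 0.665 and 0.538 FPB (0.601 ± 0.0896, SD, n = 2). Its mean was 42.8 times the limit in pooled KD. DYM was not short of circles in KD: its other circles summed to 29, 26, 194 and 53 reads in control replicates 1 and 2 and KD replicates 1 and 2. The circle from 49331864 to 49379758, which shares the last base of the control-only one, had 15, 2, 68 and 22 reads. The circle from 49329573 to 49379758 had 4, 8, 16 and 4. The position 49379758 was therefore used for backsplicing in all 4 libraries. Its joining to 49363161 was seen in the controls only, although 49363161 was also the first base of another circle read in KD.

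The EVI5 circle (chromosome 1, 92663420 to 92704744) had 11 reads in each control, or 0.563 and 0.538 FPB (0.550 ± 0.0173, SD, n = 2). A shorter circle with the same last base (92693802 to 92704744) had 12, 5, 13 and 2 reads, or 0.614, 0.245, 0.0786 and 0.0417 FPB. A circle whose first base lies 701 bases away at 92662719 and whose last base is the same had 0, 2, 5 and 0 reads. The last base was again shared with circles seen in KD, and the first was not.

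The MSANTD3-TMEFF1 circle (chromosome 9, 100498765 to 100550160) had 10 and 12 reads, or 0.511 and 0.587 FPB (0.549 ± 0.0535, SD, n = 2). The locus's leading circle starts at the same base and ends at 100516771, with 67, 91, 186 and 84 reads, or 3.43, 4.45, 1.12 and 1.75 FPB. A longer circle from that base to 100561520 had 2, 0, 5 and 5 reads. Here the first base was shared with circles seen in KD and the last base was not.

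Next in the order of the lower control value stood MSH3, a mismatch repair protein, with 6 and 9 reads, and DEK, a chromatin-bound protein, with 6 and 14. SMCHD1, a chromatin silencing factor, had 4 and 5, and NR3C1, the glucocorticoid receptor, had 7 and 4. The last base of the DEK circle (chromosome 6, 18256361 to 18258405) also closed a longer circle from 18236452 with 7, 10, 32 and 10 reads. NR3C1 had a second control-only circle with the same last base (chromosome 5, 143282568 to 143314168; 0 and 5 reads) beside the first (143310097 to 143314168). All 28 circles came from different hosts. In 11 of them both ends were used by other circles read in KD, in 13 only 1 end was, and in 4 neither was.

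**Figure D3:**
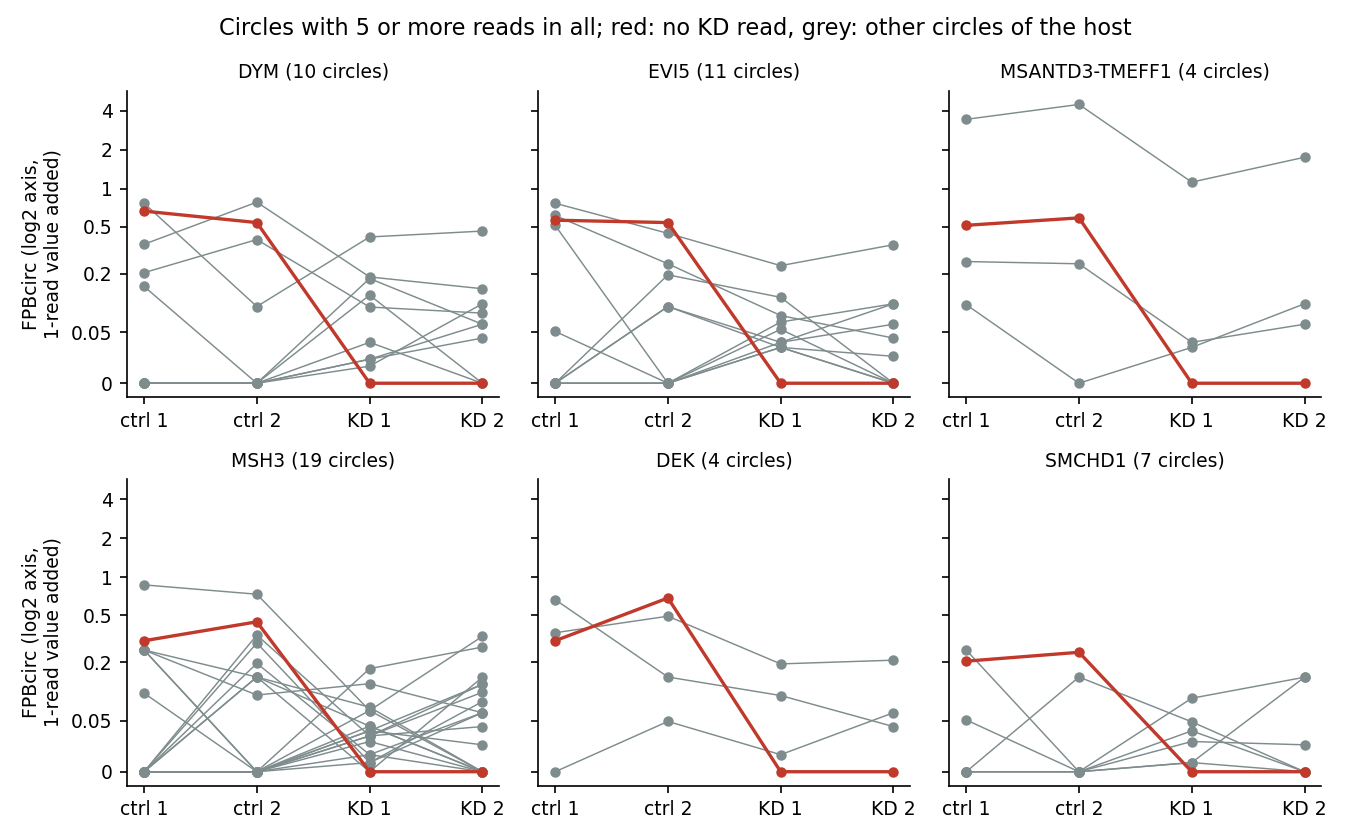
FPBcirc (y axis, log2 scale after adding 0.0349 FPB, the median value of 1 read) of each circle with 5 or more reads in total, in the 4 libraries (x axis), for 6 hosts of control-only circles read in both controls. Red lines are control-only circles and grey lines the other circles of the host, among them circles of each host that keep reads in KD.

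The median span of control-only circles was 12174 bases (quartiles 4410 and 27275), against 9552 for circles also read in KD. Control-only circles read in both controls had a median of 11077, and those read in 1 had 12182. The gap varied with the reads in the higher control. At 3 reads the medians were 12606 and 9296, at 4 reads 11866 and 10259, and at 5 to 6 reads 12130 and 9117. At 7 to 9 reads they were 10484 and 10215, and at 10 or more reads 10546 and 9308. Spans over 100 kilobases made up 48 of the 1639 (2.93%), against 1.58% of circles also read in KD and 2.45% of all circles listed, and 0 of the 106 read in both controls. Spans under 500 bases made up 3.54% against 3.75%. Ends were compared with those of other circles. Both ends were shared with other circles read in KD in 28.4% of control-only circles, 1 end in 48.6% and neither in 22.9%. For circles also read in KD these shares were 49.8%, 41.2% and 9.0%, and over all circles listed both ends were shared in 33.7%, 1 in 46.3% and neither in 9032 of 45182. Of control-only circles read in both controls, 30.2% shared both ends, 56.6% shared 1 and 13.2% shared neither. These shares were not matched for read number. Only 3 control-only circles lay within 10 bases at both ends of a circle read in KD: one each of MTR, ATRX and PRRC2B.

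**Figure D4:**
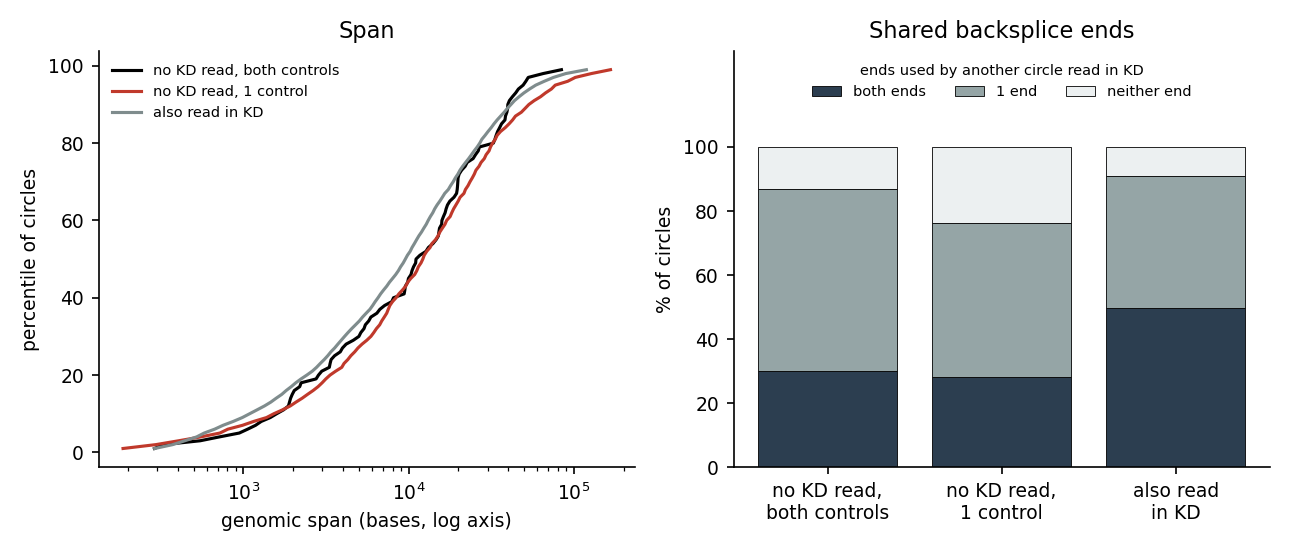
Left, percentile of circles (y axis) against genomic span in bases (x axis, log scale) for control-only circles read in both controls (black), in 1 control (red), and circles also read in KD (grey). Right, share of circles (y axis, %) with both, 1 or neither end used by another circle read in KD, for the same 3 sets, where neither end was used in 13.2%, 23.6% and 9.0%.

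Most hosts also formed circles that were read in KD. Of 1289 hosts, 1186 (92.0%) had a circle read in KD, and 103 had none. The hosts listed 14166 other circles, of which 13128 were read in KD. A KD read was common over the whole list too. Of all 45182 circles, 4403 were read in controls alone, the 1639 control-only ones among them. The median number of circles per host was 9, against 3 over all hosts and 7 over hosts of circles also read in KD. Of the 1269 hosts matched in RefSeq, 1247 were protein coding, 13 were long noncoding RNA genes, 8 were transcribed pseudogenes and 1 was the RNase MRP RNA. Over all listed hosts 7966 were matched, with 7640 protein coding, 174 long noncoding RNA genes and 136 transcribed pseudogenes. Single circles came from 1047 hosts, and 63 hosts gave 3 or more, 234 circles in all. BIRC6, a giant inhibitor of apoptosis and ubiquitin ligase, gave 9 of its 110 listed circles, and 92 of the 110 were read in KD. GON4L, a nuclear transcription cofactor, gave 7 of 39. CCAR1, EIF4G3, LRBA and UTRN gave 6 each. Among chromosomes, the share of control-only circles was 21.7% over all, 14.8% on chromosome 18 and 28.4% on X, with the others in between except Y, where the only circle, also read in KD, left it at 0.

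By the hosts' functions, the share that was control-only, of control-only circles and circles also read in KD together, lay on either side of that 21.7%. It was 28.7% for splicing and polyadenylation hosts (41 circles), 25% for DNA replication and repair (66), 24.8% for the ubiquitin system (78), 24.8% for membrane traffic (64) and 24.7% for centrosome and cilium (55). It was 23.5% for the exosome and its cofactors (8) and 22.9% for long noncoding hosts (11). Lower shares were 21.4% for glycosylation and lipid enzymes (21), 19.9% for kinases (62), 19.3% for nuclear pore and transport (29), 18.8% for chromatin regulators (72), 16% for translation and mRNA decay (31), 15.4% for zinc finger genes (19) and 14.9% for hosts of much studied circles (36). These lists are described without a test. Among exosome-related hosts, HBS1L, whose short isoform bridges the exosome and the SKI complex in human cells, had 9 and 3 reads (chromosome 6, 135039573 to 135050647). MTREX, the RNA helicase that feeds the nuclear exosome, had 8 and 0 (chromosome 5, 55324132 to 55343455).

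Linear RNA of the hosts was compared between KD and control. It was derived from CIRCscore, which the rule did not use, and from FPBcirc, which the rule used. It could be derived in all 4 libraries for 827 of the 1289 hosts, and the 103 hosts without a circle read in KD have no linear value there. With limma, 619 of 2547 host genes were lower in KD (24.3%) and 287 were higher (11.3%) at an adjusted p under 0.05. Of the 827 hosts of control-only circles, 241 were lower (29.1%) and 54 were higher (6.53%), with a median log2 fold change of -0.28 against -0.17 over all. Of the 91 with a circle read in both controls, 32 were lower and 2 higher, with a median of -0.32. Of the 24 with at least 3 reads in each control, 12 were lower and 1 was higher, with a median of -0.49. Whether these shares differ between sets of hosts was not tested. All values are scaled to mapped sequence, so a lower value and a larger share of other RNA cannot be told apart. With each library centred on its median, 130 of the 827 were higher and 234 lower, where 553 (21.7%) and 582 (22.9%) of all 2547 were. Without control replicate 1, 9 of the 827 were higher and 96 lower, against 75 (2.94%) and 244 (9.58%) of all. Without control replicate 2 it was 16 and 77, against 123 (4.83%) and 180 (7.07%). Leaving out KD replicate 1 gave 140 lower, against 368 of all (14.4%), and leaving out KD replicate 2 gave 362, against 915 of all (35.9%).

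Among the largest falls stood PIK3R3, whose linear RNA was 13.8 and 18.3 FPB in controls and 2.71 and 4.61 in KD libraries (log2 fold change -1.84, SE 0.23, limma adjusted p = 1.16e-13). CMPK1, a nucleoside monophosphate kinase, fell by 1.82, and KTN1, the kinesin receptor kinectin, fell by 1.73 on the log2 scale. DEK fell from 70.1 and 74.7 FPB to 18.2 and 29.2 (log2 fold change -1.60, SE 0.26, limma adjusted p = 4.56e-08). PITPNB, AP3B1, EXOC5, HSPA4, HSD17B4 and RARS1 fell by 1.43 to 1.65. The groups did not overlap for these 10 hosts, as the rule for naming them required, and the KD libraries were the low ones.

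Rises were led by CASTOR2, an arginine-sensor family member, from 1.11 and 1.80 FPB to 6.89 and 6.36 (log2 fold change 1.56, SE 0.19, limma adjusted p = 2.92e-13). TNPO2, a nuclear import receptor, rose by 1.15, FANCA, a DNA crosslink repair protein, by 1.08, and KMT2B, a histone methyltransferase, by 1.01. TMEM94 rose by 1.12, DIP2C by 1.12, BRWD1 by 0.99 and EMSY by 0.98. ZNF711, a zinc finger protein, rose by 1.28 although its controls stood far apart at 103 and 37.8 FPB, and its limma adjusted p of 0.00867 did not hold when either KD library or control replicate 2 was left out. It was also lost with libraries centred on their median (adjusted p = 0.163) and with the replicate number as a block (adjusted p = 0.510). Without control replicate 1, BRWD1, KMT2B and TMEM94 were no longer past the threshold.

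The hosts of the best replicated circles had different linear values. Linear DYM was 7.84 and 7.87 FPB in controls and 8.26 and 11.1 in KD, with the KD values above both controls (log2 fold change 0.25, SE 0.23, limma adjusted p = 0.396). Linear EVI5 was 6.90 and 6.52 against 2.53 and 3.28 (log2 fold change -0.95, SE 0.21, limma adjusted p = 8.74e-05). Linear MSANTD3-TMEFF1 was 12.4 and 13.9 against 7.89 and 12.1 (log2 fold change -0.38, SE 0.23, limma adjusted p = 0.201). Linear MSH3 fell by 1.01 on the log2 scale. Control-only circles of high control level were thus found both on hosts whose linear RNA was lower in KD and on hosts where it did not pass the threshold.

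**Figure D5:**
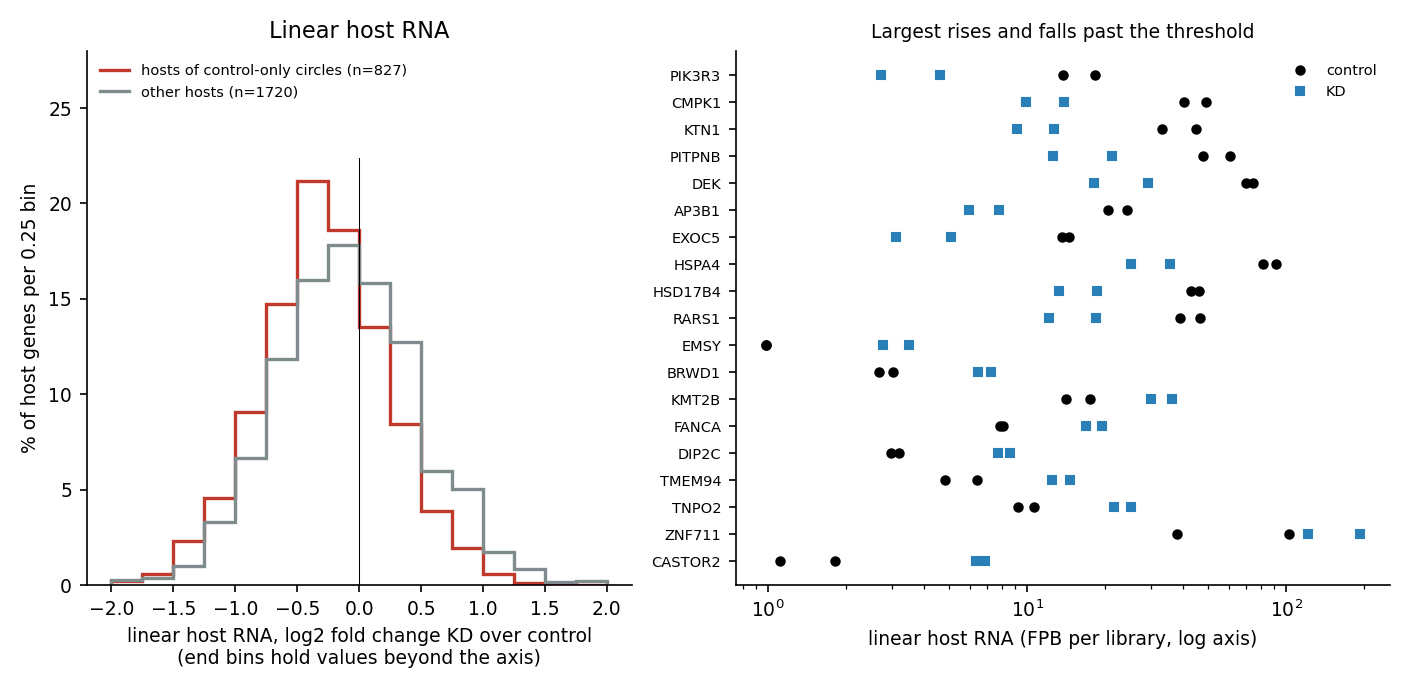
Left, distribution of the log2 fold change of linear host RNA, KD over control (x axis, bins of 0.25), as a percentage of hosts (y axis), for 827 hosts of control-only circles (red) and 1720 other hosts (grey). Right, linear host RNA in FPB (x axis, log scale) in the 2 control (black circles) and 2 KD libraries (blue squares) of hosts of control-only circles with the largest rises and falls, named under the condition that control and KD values do not overlap.

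The other circles of these hosts mostly did not pass the test. Of 2427 circles fitted with limma, 11 were lower in KD (0.453%) and 2 were higher (0.0824%) at an adjusted p under 0.05. Among the 2427 were 14 control-only circles, whose KD values of 0 were fixed by the rule. Counts and medians over all circles include these 14, and those of the hosts' other circles do not. Of the 816 other circles that belonged to hosts of control-only circles, 3 were lower and 1 was higher, with 119 lower and 34 higher at an unadjusted p under 0.05. Over all 2427 circles, 340 were lower (14%) and 124 higher (5.11%) at an unadjusted p under 0.05. The 816 had a median log2 fold change of -0.47, against -0.33 over all. The NR3C1 circle from 143399656 to 143400852 had 54, 61, 77 and 20 reads, which is 2.76 and 2.98 FPB in controls and 0.465 and 0.417 in KD libraries (log2 fold change -2.61, SE 0.35, limma adjusted p = 0.0444). A circle of MCM3, part of the helicase that opens DNA for replication, had 1.84 and 1.47 FPB against 0.115 and 0.188 (log2 fold change -3.20, SE 0.47, limma adjusted p = 0.0486). A circle of ANKRD13C, an ankyrin repeat protein, had 2.71 and 2.49 against 0.441 and 0.543 (log2 fold change -2.33, SE 0.35, limma adjusted p = 0.0486). The circle that was higher came from TBCD, a tubulin folding cofactor (chromosome 17, 82903405 to 82911789), with 0 reads in both controls and 250 and 99 in KD. None of these 4 passed when either KD library was left out, with libraries centred on their median, with limma without trend and robust moderation, with a filter of 1 times the value of 1 read, or with edgeR on the recovered reads.

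Abundant circles of these hosts showed both directions without passing. CAMSAP1, a microtubule minus-end protein, had 15.5 and 14.7 FPB in controls and 31.2 and 30.9 in KD for its leading circle (log2 fold change 1.04, SE 0.19, limma adjusted p = 0.0647). The leading circle of MGA, a transcription factor, had 8.23 and 6.16 against 2.95 and 3.78 (log2 fold change -1.09, SE 0.29, limma adjusted p = 0.127). RBM33 and SPECC1 lay near 0, with log2 fold changes of 0.01 and 0.02.

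Summed over all circles of a host that were not control-only, 40 of 2280 hosts were lower in KD (1.75%) and 25 were higher (1.10%) with limma. Of the 675 tested hosts of control-only circles, 15 were lower and 7 higher, with a median log2 fold change of -0.11 against 0.08 over all. Leaving the control-only circles out of the sums moves these hosts toward KD. With them kept in, 23 were lower and 8 higher among 788 hosts, against 52 (2.17%) and 33 (1.38%) of all 2393. SLF1, a DNA repair factor, had 2.97 and 4.99 FPB in controls and 0.441 and 0.814 in KD libraries (log2 fold change -2.61, SE 0.44, limma adjusted p = 0.0156). NR3C1 (-2.51), MCM3 (-2.39), KTN1 (-2.26), CDKN2B-AS1 (-2.24), DCUN1D4 (-1.94) and UBE2Q2 (-1.92) were also lower on the log2 scale. MYBL2, a cell cycle transcription factor, had 0.409 and 0.929 FPB against 2.87 and 2.73 (log2 fold change 2.12, SE 0.45, limma adjusted p = 0.0373), while a single control-only circle of it had 9 and 0 reads. SRCAP, DIP2C, PCSK5, ENSG00000258539, TBCD and CAMSAP1 were higher by 0.90 to 2.09. None of these calls held when either KD library was left out.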

How the data were processed

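Per the labels' protocols, rRNA-depleted total RNA was made into strand-keeping libraries. The tools bcl2fastq 2.20 and Bowtie2 2.3.5 and build hg38 come from the submitters' processing notes; what called the circles was not given in the sources used here. FPBcirc as deposited is a signal scaled to mapped gigabases, and CIRCscore as deposited is the ratio of this signal to that of linear host RNA, as read per the file headers and from the values. The deposited fold column, a ratio of group means, was not used. Of nonzero FPBcirc values, 100% were whole multiples of the smallest in their library (tolerance 0.001 of a read), which gave reads and depth. In the deposited FPBcirc file, 7 lines were empty. Strand was not given and no genome was used.

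Linear host RNA was (FPBcirc + 0.01) / CIRCscore minus 0.01, per host gene, and exists only where a circle was read. The test was limma 3.58.1 (R 4.3.3) of log2(value + pseudocount) with trend and robust moderation, two-sided, Benjamini-Hochberg over all features tested, threshold 0.05. Fold changes understate the change of low features. The pseudocount was 0.0349 FPB for circles and sums (filter of 0.174 FPB on the mean) and 1.22 FPB for linear RNA (percentile 5). edgeR 4.0.16 and DESeq2 1.42.0 on recovered reads were alternatives. Over all circles edgeR called 1 higher and 0 lower, and DESeq2 called 173 higher and 65 lower. The fit functions were also run on simulated data, as a check of the code and not of the calls given here. For linear RNA the simulation used another pseudocount and filter. Tables were made in Python 3.11.15 and figures with matplotlib 3.10.9. Replicates are biological per the labels.

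The circles, gene lists and tests were chosen with earlier results of these data known. Named circles were the 15 of highest control mean, the 15 of highest lower control, hosts with most, the longest and shortest, and 2 per list. Named hosts and other circles were those past the threshold with the largest change and the 10 most abundant circles. Of the items this rule named, 2 are not reported here. The second HSP90AA1 and NR3C1 circles, circles sharing an end, and the sequences were chosen after their values were seen. With 2 libraries per group an exact permutation test of 1 value cannot give a p below 0.333.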

Additional observations from a re-analysis of the deposited data

How the results depend on the processing

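The number of control-only circles followed the rule: 28 with at least 0.14 FPB in both controls, 496 with at least 0.24 FPB, 44 with at least 0.48 FPB and 4403 with any value above 0, and 782 to 2895 when 1 library was left out. Linear host RNA kept its counts of hosts higher and lower, 54 and 241, within 1.5 times in most settings; 130 were higher with libraries centred on their median, and leaving out 1 library gave 9 to 55 higher and 77 to 362 lower.

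Counts for other circles (1 higher, 3 lower) and summed circles (7 higher, 15 lower) were small and moved. For other circles, DESeq2 gave 45 higher and 23 lower, where it called 173 and 65 of all 2427 circles fitted. Calls with edgeR were 0 and 0 (74 and 44 at an unadjusted p under 0.05). A filter of 1 times the value of 1 read gave 0 and 0 (176 and 168). A filter of 10 times gave 9 and 60, against 31 and 160 over all circles fitted. Centring gave 0 and 0 (67 and 65), and limma without trend and robust moderation 0 and 0 (32 and 104). With a pseudocount 4 times larger there were 4 and 7, against 19 and 26 over all. One 4 times smaller gave 0 higher (27). Leaving out 1 library gave 0 to 96 higher and 0 to 169 lower. For summed circles, edgeR gave 12 higher, a filter of 1 times 0 and 0 (101 higher and 75 lower unadjusted), 10 times 15 and 40, limma without trend and robust moderation 0 and 0 (47 and 44), the larger pseudocount 13 higher, and sums with control-only circles 23 lower. Leaving out 1 library gave 0 to 87 higher and 0 to 82 lower. The 0 counts came without a KD library, which leaves the lone KD library assumed to vary like the controls. The cause of these differences was not tested.

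The replicate numbers share only a number: deviations of same-numbered libraries correlated at 0.00289 (circles), 0.0650 (linear RNA) and -0.0173 (sums). With the replicate block the calls were 9 higher and 37 lower for other circles, 77 and 326 for linear RNA, and 14 and 31 for sums. Over all features fitted they were 36 and 98 for circles and 391 and 820 for linear RNA.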
